A study of Mus musculus with 9 samples.

Results

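The transcripts of 10 feedback genes of ERK signaling were followed in regenerating mouse liver. They were chosen by name from what is known of their function, but with earlier results of these data known. They were the dual-specificity phosphatases *Dusp1*, *Dusp4*, *Dusp5* and *Dusp6*, the Sprouty genes *Spry1*, *Spry2* and *Spry4*, the Sprouty-related genes *Spred1* and *Spred2*, and the transcription factor *Etv5*. All 10 were among the 43346 genes listed in the deposited tables, and 10 of 10 passed the filter on low counts, which left 15024 genes for testing.

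Whole liver of C57/BL6 mice aged 12 weeks was profiled by RNA-Seq in 9 libraries, 3 per group. Baseline libraries came from the tissue resected from vehicle-treated mice at 70% partial hepatectomy (0 h), and the other groups were liver remnants 40 h after that operation from mice given saline vehicle or NSC-87877 (NSC), a small molecule inhibitor of the tyrosine phosphatase SHP2 that also acts on its relative SHP1. The i.p. dose of NSC was 7.5 mg/kg, with 2 doses per day, starting 12 h before surgery by the sample labels and 1 day before by the study's methods. No NSC-treated tissue at 0 h was analysed here. The comparisons of vehicle and of NSC remnants with baseline therefore share the 3 vehicle baseline libraries, and NSC was also set against vehicle directly at 40 h.

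ERK is the last kinase of the RAS-RAF-MEK relay that carries growth factor signals from receptor tyrosine kinases to the nucleus, and SHP2 normally helps receptors to activate RAS. Active ERK induces its own brakes: DUSP phosphatases remove the activating phosphates from ERK or its relatives p38 and JNK, Sprouty proteins act between the receptor and RAF, and SPRED proteins recruit neurofibromin to shut off RAS. For this reason the transcripts of *Dusp6*, the Sprouty genes and the ETV factors are widely used as a record of ERK output, and in liver growth factors such as HGF and EGF drive this pathway after tissue loss.

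Between 23997363 and 42887589 reads per library were assigned to genes, so that 3 counts, the limit that a count of 0 allows, equalled 0.075 to 0.117 CPM (a gene's count relative to the size of its library). Levels below are CPM scaled by TMM factors, given for replicates 1, 2 and 3 in that order. A difference is a log2 fold change from edgeR's quasi-likelihood test with its standard error (SE), and it passed where p adjusted over all 15024 genes (Benjamini-Hochberg) was under 0.05. The labels name no animal for a library, so the p-values measure the spread between these samples only. In whole liver, fewer cells of a type and less RNA per cell cannot be told apart. Albumin, the defining product of hepatocytes, was at a mean of 92300 CPM at baseline, 90800 in vehicle and 86300 in NSC remnants. Other hepatocyte markers were not all as steady. In the same order *Cps1* had means of 5660, 3820 and 2380 CPM, *Ttr* 6580, 3850 and 3980, and *Fgb* 6010, 15600 and 11300. *Apoa1* had 7320, 6880 and 6070 CPM, and *Serpina1a* 1940, 2270 and 2020.

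Of the 10 feedback genes, 4 rose in vehicle-treated remnants against baseline: *Dusp5*, *Dusp6*, *Spred1* and *Etv5*. The share of all tested genes that passed in either direction was 23.7%, and 12.7% passed as higher. None passed as lower, although *Dusp1* was lower at an unadjusted p of 0.0186 and passed as lower with DESeq2, with edgeR's exact test and after GC correction. An unadjusted p under 0.05 was reached by 5 of the 10, against 37% of all genes. In NSC-treated remnants 4 also passed against baseline, where 34.7% of all genes did: *Dusp5*, *Spred1* and *Etv5* rose and *Spry4* fell. Here too 5 of the 10 had an unadjusted p under 0.05, against 45.2% of all genes. In the direct comparison of NSC with vehicle at 40 h, 0 of 10 passed by the quasi-likelihood test, where 0.0399% of all genes passed. There, 2 had an unadjusted p under 0.05 (*Dusp5* and *Dusp6*, both lower with NSC), against 19.5% of all genes. DESeq2 called both, among 758 of 15024 genes that it called in all. The exact test called 1 (*Dusp6*), among 247 of 15024. The median log2 fold change of the 10 genes was 0.51 for vehicle against baseline, 0.05 for NSC against baseline and -0.30 for NSC against vehicle, whereas over all tested genes these medians were 0.013, 0.013 and 0.015.

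**Figure D1:**
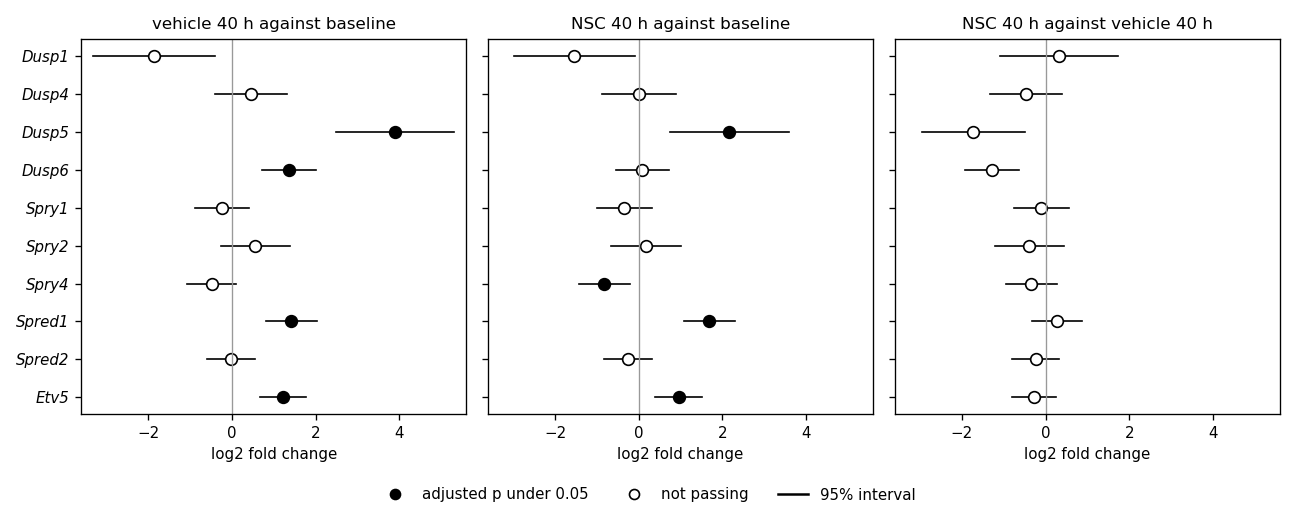
Log2 fold change (x axis) of each feedback gene (y axis) in the 3 comparisons, with lines for the 95% interval and filled points for an adjusted p under 0.05. Filled points stand at *Dusp5*, *Dusp6*, *Spred1* and *Etv5* for vehicle against baseline, at *Dusp5*, *Spry4*, *Spred1* and *Etv5* for NSC against baseline, and nowhere in the direct comparison, where the intervals of *Dusp5* and *Dusp6* lie below 0.

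Levels of different genes were set side by side only per gene length, as the deposited FPKM. At baseline *Dusp1* (20.4 ± 11.1 FPKM, SD, n = 3) and *Dusp6* (14.5 ± 1.06) were the most abundant of the 10 and overlapped each other, and the libraries of both lay above those of every other feedback gene. *Spry1*, *Spred2*, *Spry4*, *Spred1* and *Etv5* followed between 1.74 and 0.604 FPKM, each overlapping its neighbor in the order. *Dusp4* (0.417 ± 0.142) and *Spry2* (0.352 ± 0.104) came next, and *Dusp5* was lowest at 0.157 ± 0.0455 FPKM. In vehicle remnants *Dusp6* led at 37.6 ± 15.5 FPKM, apart from all others, and *Dusp5* at 2.37 ± 1.47 FPKM had moved into the middle of the order, where *Dusp1*, *Spred1*, *Dusp5*, *Spred2*, *Spry1*, *Etv5* and *Spry4* each overlapped the next. In NSC remnants *Dusp6* (17.0 ± 4.06 FPKM), *Dusp1* (7.78 ± 4.33) and *Spred1* (3.39 ± 1.15) stood apart from one another and from the rest, which ranged from 1.52 FPKM for *Spry1* to 0.442 for *Spry2*, with *Dusp5* at 0.788 ± 0.477.

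**Figure D2:**
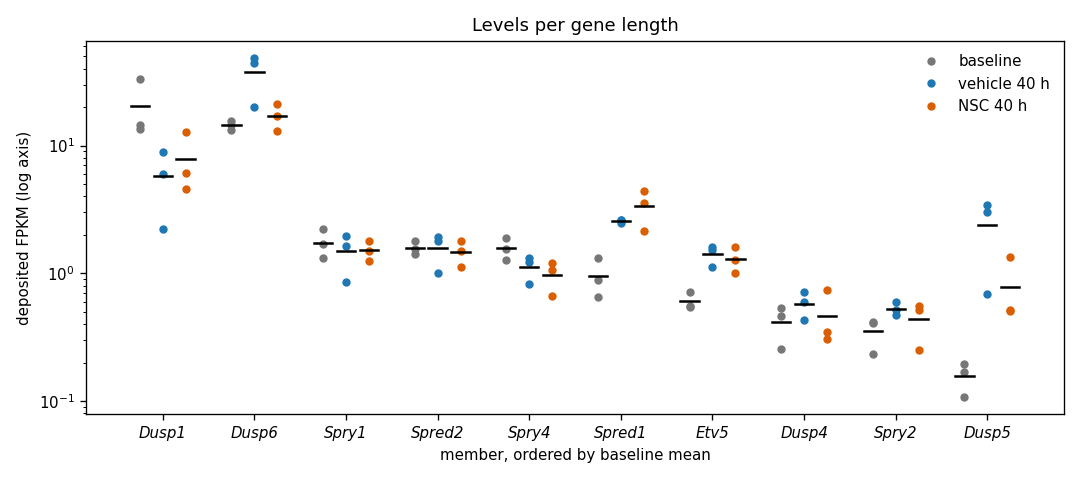
Deposited FPKM (y axis, log scale) of each feedback gene in each library, with genes on the x axis in order of their baseline mean, 1 point per library and a bar at the mean of each group of 3. *Dusp1* and *Dusp6* lie above the others at baseline, and *Dusp5* moves from the lowest place at 0.157 FPKM to 2.37 FPKM in vehicle remnants.

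*Dusp6* (ENSMUSG00000019960, chromosome 10, 99263231 to 99267488) encodes the cytoplasmic phosphatase that acts on ERK in preference to p38 and JNK. The 250 bases before its RefSeq start, and those of *Dusp5* and *Dusp1*, are shown because *Dusp6* and *Dusp5* rose in vehicle remnants while *Dusp1* was lower there. The sequences are RefSeq's for GRCm38.p6, given 5′ to 3′ on the strand of the gene, at chr10:99262981-99263230 (plus) for *Dusp6*, chr19:53528895-53529144 (plus) for *Dusp5* and chr17:26508473-26508722 (minus) for *Dusp1*. Capitals mark 2 adjoining matches to the CArG box, the site of serum response factor, in *Dusp5*, and a match to TGACGTCA, the cyclic AMP response element, in *Dusp1*. No searched motif was found in the window of *Dusp6*.
Dusp6: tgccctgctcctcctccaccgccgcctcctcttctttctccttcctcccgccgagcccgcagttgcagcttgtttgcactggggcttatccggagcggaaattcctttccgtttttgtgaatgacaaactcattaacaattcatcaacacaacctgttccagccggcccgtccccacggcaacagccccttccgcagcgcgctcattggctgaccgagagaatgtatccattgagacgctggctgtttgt
Dusp5: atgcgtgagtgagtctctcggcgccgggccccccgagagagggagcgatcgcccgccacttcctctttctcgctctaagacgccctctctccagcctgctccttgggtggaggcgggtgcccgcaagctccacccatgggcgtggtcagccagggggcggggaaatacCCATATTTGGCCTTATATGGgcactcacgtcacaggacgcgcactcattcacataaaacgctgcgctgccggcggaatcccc
Dusp1: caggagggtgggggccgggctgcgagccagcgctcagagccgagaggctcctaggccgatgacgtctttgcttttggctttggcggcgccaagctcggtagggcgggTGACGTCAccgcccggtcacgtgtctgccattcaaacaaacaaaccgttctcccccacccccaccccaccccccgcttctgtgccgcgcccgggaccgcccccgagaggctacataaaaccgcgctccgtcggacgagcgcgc

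The motif search covered 300 bases, from 250 before to 50 after each start, on both strands, in 32851 RefSeq windows, of which 9 belonged to 8 feedback genes (2 starts for *Etv5*). The CArG box was found in 1.63% of all windows and in 1 of these 9, where its matches began 82 and 72 bases before the start of *Dusp5*. TGACGTCA was present in 1.79% of all windows and in 1 of the 9, beginning 143 bases before the start of *Dusp1*. The AP-1 site TGANTCA (7.81% of all windows), the ETS site CCGGAAGT (3.89%) and the Capicua sites TGAATGAA (1.3%) and TGAATGGA (1.21%) were in none of the 9. The shorter ETS core CCGGAA, which any CCGGAAGT contains, was in 14.9% of all windows and in 1 of the 9, that of *Spry2*, 34 bases after the start. A match is a description of these letters only.

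*Dusp6* stood at 42.6, 38.7 and 44.5 CPM at baseline. In vehicle remnants it stood at 129, 137 and 57.4 CPM, so that replicate 3 lay far below the other vehicle libraries but still above every baseline library. In NSC remnants it was 53.3, 46.4 and 34.0 CPM, a range that spans the baseline values and lies wholly below the vehicle values. *Dusp6* rose 2.57-fold in vehicle remnants (log2 fold change 1.36, SE 0.29, adjusted p = 0.00793). Against baseline the difference in NSC remnants was 0.09 on the log2 scale (SE 0.29, 95% interval -0.55 to 0.73, adjusted p = 0.834). In the direct comparison *Dusp6* was 2.42-fold lower with NSC (log2 fold change -1.27, 95% interval -1.92 to -0.63), which did not pass (adjusted p = 0.0904 in the edgeR test). The call depended on single libraries: leaving out vehicle replicate 3 gave a difference of -1.58 (adjusted p = 0.0301), and leaving out NSC replicate 1 gave -1.43 (adjusted p = 0.048). In these fits 111 and 994 of all tested genes passed, against 6 with all 9 libraries.

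**Figure D3:**
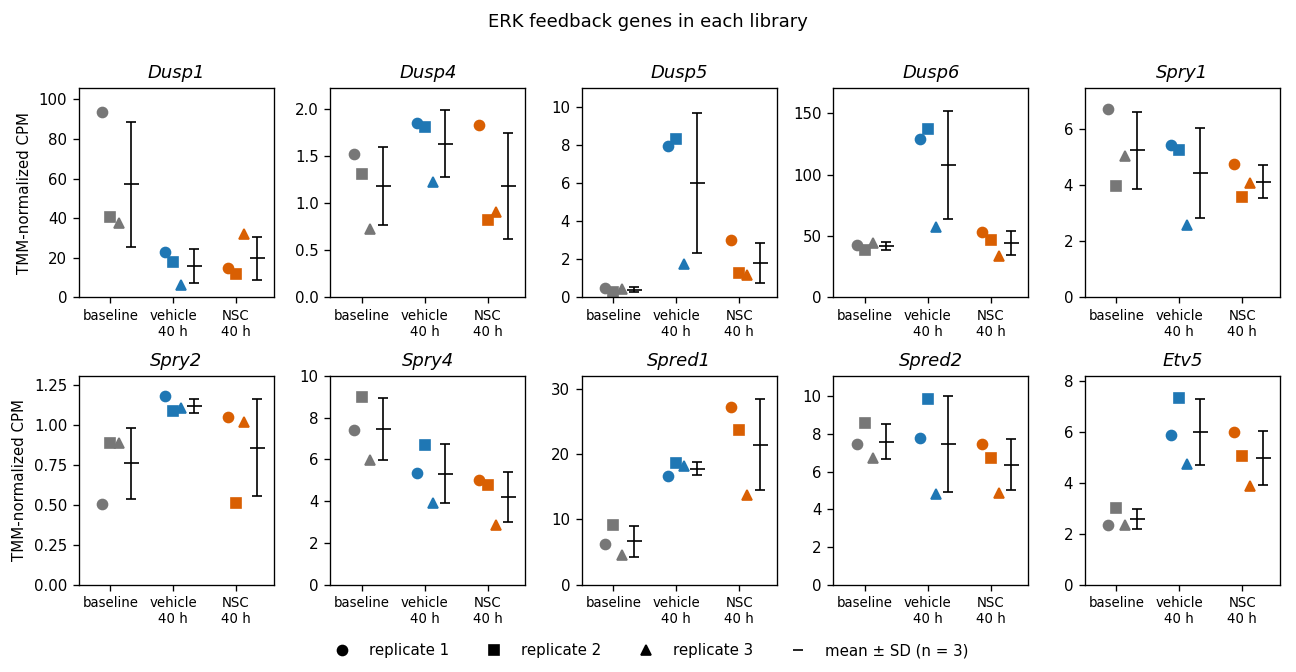
TMM-normalized CPM (y axis, from 0) of each feedback gene in the 9 libraries by group (x axis), with the marker shape for the replicate number and bars for the mean ± SD of 3. For *Dusp6* and *Dusp5*, vehicle replicates 1 and 2 stand well above all other libraries, and vehicle replicate 3 lies near the NSC values.

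*Dusp5* (ENSMUSG00000034765, chromosome 19, 53529109 to 53542431), the nuclear ERK phosphatase, showed the largest rise of the 10. At baseline it was barely transcribed, with 0.505, 0.275 and 0.429 CPM, or 9 to 16 counts per library. Vehicle remnants had 7.98, 8.31 and 1.77 CPM and NSC remnants 3.0, 1.26 and 1.17 CPM. Each 40 h library was above each baseline library, but the 40 h groups overlapped, since vehicle replicate 3 lay below NSC replicate 1. The rise over baseline was 14.9-fold in vehicle remnants (log2 fold change 3.90, SE 0.64, adjusted p = 0.00218) and 4.5-fold in NSC remnants (2.17, SE 0.64, adjusted p = 0.024). It was also past the fold threshold of 1.5 on the log2 scale in both. With that threshold added, 1 feedback gene passed as higher for vehicle (5.03% of all genes) and 2, *Dusp5* and *Spred1*, for NSC (5.38%). As lower, 0 passed for vehicle (2.19% of all genes), 0 for NSC (2.75%) and 0 for NSC against vehicle (0.02%). The rise in NSC remnants no longer passed when baseline replicate 1, 2 or 3 was left out (adjusted p = 0.0537, 0.0835 and 0.0716), when NSC replicate 1 was left out (0.0959), or when all genes with at least 1 count were tested (0.0583). Directly, *Dusp5* was 3.31-fold lower with NSC than with vehicle (log2 fold change -1.73, SE 0.55, 95% interval -2.96 to -0.50, adjusted p = 0.148). Without vehicle replicate 3 the difference was -2.16 with an adjusted p of 0.0487, in the fit where 111 of all tested genes passed. A gene annotated on the opposite strand overlaps the 5′ end of *Dusp5*, as one does for *Spry1*, and the strand setting of the counting is not given in the sources used here.

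**Figure D4:**
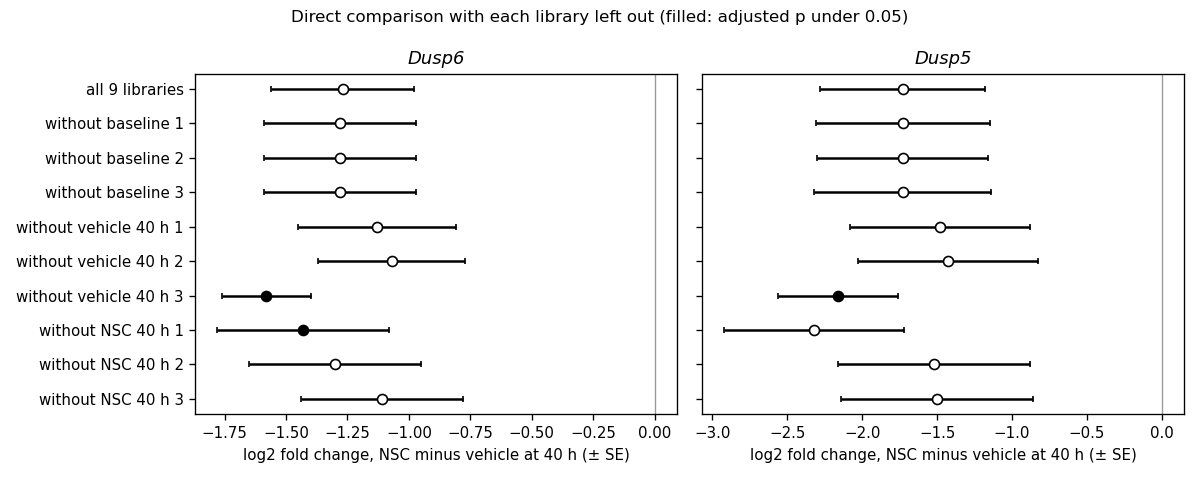
Log2 fold change of *Dusp6* and *Dusp5* for NSC minus vehicle at 40 h (x axis, lines ± SE) with all 9 libraries and with each library left out in turn (y axis). Points are filled where the adjusted p was under 0.05, which was so for *Dusp6* without vehicle replicate 3 or NSC replicate 1 and for *Dusp5* without vehicle replicate 3.

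*Dusp1* (ENSMUSG00000024190, chromosome 17, 26505590 to 26508519), an immediate early nuclear phosphatase that acts on p38 and JNK as well as ERK, pointed the other way. It stood at 93.4, 40.7 and 37.3 CPM at baseline, 22.9, 18.0 and 6.2 in vehicle remnants and 14.8, 12.0 and 32.2 in NSC remnants. Every 40 h library lay below every baseline library, and baseline replicate 1 was far above the other baselines. The log2 fold change against baseline was -1.86 in vehicle remnants (95% interval -3.31 to -0.41, adjusted p = 0.0677) and -1.54 in NSC remnants (95% interval -2.98 to -0.10, adjusted p = 0.0912), so neither passed. Both passed with DESeq2 (adjusted p = 0.0167 and 0.0447) and with edgeR's exact test (0.000951 and 0.00496). The vehicle difference also passed after GC correction (0.043), and the NSC difference in the edgeR fit without vehicle replicate 3 (0.046). Between treatments the difference was 0.32 (95% interval -1.10 to 1.74, adjusted p = 0.809). *Dusp4* (ENSMUSG00000031530, chromosome 8, 34807297 to 34819894), an inducible nuclear phosphatase of ERK, was scarce throughout, with 22 to 74 counts per library. It had 1.52, 1.31 and 0.726 CPM at baseline, 1.85, 1.81 and 1.22 with vehicle and 1.83, 0.815 and 0.9 with NSC. These groups overlapped, and the log2 fold changes of 0.46 for vehicle against baseline (adjusted p = 0.429), 0.00 for NSC against baseline (adjusted p = 0.995) and -0.46 for NSC against vehicle (95% interval -1.32 to 0.40) did not pass.

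The Sprouty genes, whose products restrain receptor tyrosine kinase signaling upstream of RAF, included no gene that passed as higher in a 40 h group. *Spry4* (ENSMUSG00000024427, chromosome 18, 38586268 to 38601268) had 7.42, 8.97 and 5.97 CPM at baseline, 5.33, 6.71 and 3.91 with vehicle and 5.01, 4.75 and 2.86 with NSC. All NSC libraries lay below all baselines, whereas vehicle and baseline overlapped. *Spry4* fell 1.77-fold in NSC remnants (log2 fold change -0.82, SE 0.28, adjusted p = 0.0372), and the vehicle difference was -0.48 (SE 0.27, adjusted p = 0.222). The direct difference of -0.34 (SE 0.28, adjusted p = 0.518) did not pass. The fall in NSC remnants was no longer called with library size as the only scaling (adjusted p = 0.0713), nor without baseline replicate 1 or 2 (0.0787 and 0.122), vehicle replicate 1 (0.0523), or NSC replicate 2 or 3 (0.0606 and 0.109).

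*Spry1* (ENSMUSG00000037211, chromosome 3, 37639947 to 37644598) had 6.69, 3.97 and 5.05 CPM at baseline, 5.43, 5.26 and 2.58 with vehicle and 4.74, 3.56 and 4.07 with NSC. The groups overlapped in every comparison, with log2 fold changes of -0.24 (vehicle against baseline, adjusted p = 0.61), -0.34 (NSC against baseline, adjusted p = 0.403) and -0.11 (NSC against vehicle, adjusted p = 0.875). *Spry2* (ENSMUSG00000022114, chromosome 14, 105891949 to 105896819) was near the low end of the 10, with 0.505, 0.885 and 0.89 CPM at baseline, 1.18, 1.09 and 1.11 with vehicle and 1.05, 0.509 and 1.02 with NSC. Its vehicle libraries lay above all baseline and all NSC libraries, by margins that did not pass: 0.56 against baseline (SE 0.38, adjusted p = 0.305) and -0.39 for NSC against vehicle (SE 0.38, adjusted p = 0.591). At 15 to 47 counts per library, differences of this size in *Spry2* were not detectable at this depth and n. The NSC difference from baseline was 0.17 (adjusted p = 0.753).

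*Spred1* and *Spred2* encode related inhibitors of RAS and RAF activation of the same family. *Spred1* (ENSMUSG00000027351, chromosome 2, 117121374 to 117182279) had 6.25, 9.19 and 4.55 CPM at baseline, 16.7, 18.7 and 18.2 with vehicle and 27.3, 23.7 and 13.7 with NSC. Every 40 h library was above every baseline library, the vehicle libraries were close together, and the NSC libraries spread to both sides of them. *Spred1* rose 2.67-fold with vehicle (log2 fold change 1.42, SE 0.28, adjusted p = 0.00435) and 3.23-fold with NSC (1.69, SE 0.28, adjusted p = 0.00117). Both rises passed at an adjusted p under 0.05 in each alternative fit, but the vehicle rise was not past the fold threshold of 1.5. The difference between treatments was 0.27 (SE 0.27, adjusted p = 0.598). *Spred2* (ENSMUSG00000045671, chromosome 11, 19924375 to 20024026) had 7.48, 8.55 and 6.73 CPM at baseline, 7.78, 9.84 and 4.8 with vehicle and 7.47, 6.72 and 4.85 with NSC. All groups overlapped, and its log2 fold changes were -0.02 (SE 0.26, adjusted p = 0.97), -0.26 (SE 0.26, adjusted p = 0.479) and -0.24 (SE 0.26, adjusted p = 0.64) for vehicle against baseline, NSC against baseline and NSC against vehicle.

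*Etv5* (ENSMUSG00000013089, chromosome 16, 22381309 to 22439719), an ETS transcription factor of the PEA3 group that follows ERK and FGF signaling, rose in both kinds of remnant. It had 2.34, 3.02 and 2.34 CPM at baseline, 5.9, 7.36 and 4.76 with vehicle and 6.0, 5.06 and 3.87 with NSC. No 40 h library reached down to the baseline values, and the treatments overlapped. The rise was 2.34-fold with vehicle (log2 fold change 1.23, SE 0.25, adjusted p = 0.00488) and 1.94-fold with NSC (0.96, SE 0.25, adjusted p = 0.0123). The direct difference was -0.27 (SE 0.25, adjusted p = 0.564). Without baseline replicate 3 the NSC rise was 0.90 with an adjusted p of 0.0518.

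Counting separation alone, 5 of the 10 had all vehicle libraries above all baselines (24.2% of all genes) and 1 had them below (22%). For NSC against baseline, 3 were wholly above (23.9%) and 2 wholly below (23.1%). Between treatments 0 were wholly higher with NSC (10.2%) and 2, *Dusp6* and *Spry2*, wholly lower (12.2%). The direct differences were negative for 8 of the 10 genes and positive for *Dusp1* and *Spred1*, where the median over all tested genes was 0.015.

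The libraries within each 40 h group were uneven across the 10 genes. Vehicle replicate 3 was the lowest of its group for 8 of 10 genes, and NSC replicate 1 was the highest of its group for 9 of 10. The same count was not made over all tested genes. A trait of the feedback genes therefore cannot be told apart here from a shift of the whole library. The summed level of the 10 genes was 169, 116 and 108 CPM at baseline, 204, 214 and 102 with vehicle and 124, 105 and 98.6 with NSC, so vehicle replicate 3 lay below all baseline libraries by this sum, to which *Dusp1* and *Dusp6* contribute most. The median over the 10 genes of log2 CPM, with each gene centered on its mean of 9 libraries, weights the genes equally. It was -0.16, -0.08 and -0.20 at baseline, 0.36, 0.49 and -0.02 with vehicle and 0.17, -0.27 and -0.24 with NSC. By this score the vehicle libraries were above all baselines, and vehicle replicate 3 lay below NSC replicate 1.

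**Figure D5:**
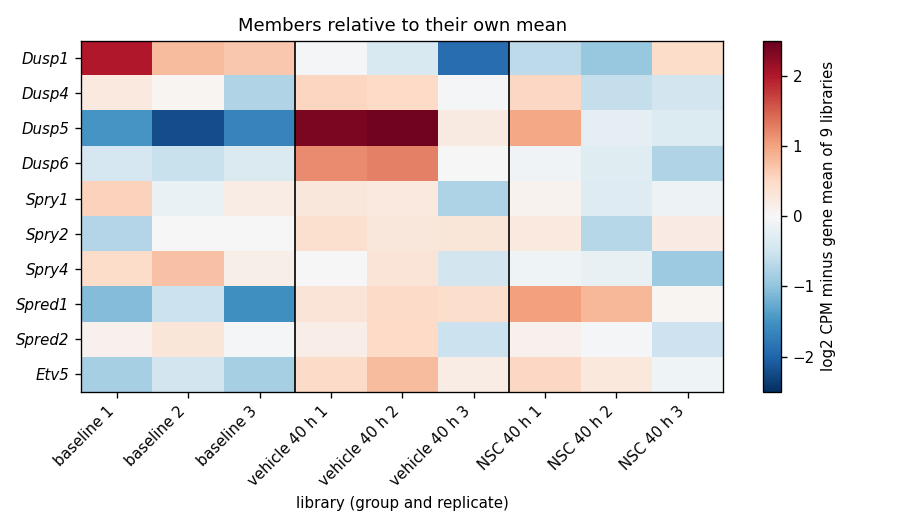
Log2 CPM minus the mean of the gene over 9 libraries (color, from -2.5 to 2.5) for each feedback gene (y axis) in each library (x axis), with lines between the groups. *Dusp5* changes from blue at baseline to red in vehicle replicates 1 and 2, *Dusp1* is red at baseline, *Spred1* and *Etv5* are blue at baseline, and *Spry1* and *Spred2* stay pale.

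Likeness of pattern was measured as the root mean square difference in centered log2 CPM over the 9 libraries, which share the 3 groups. Among the feedback genes, *Spry4* and *Spred2* were the closest pair (0.265), followed by *Spry1* and *Spred2* (0.307) and *Spred1* and *Etv5* (0.392), and *Dusp1* and *Dusp5* were the farthest apart (2.32). The measure is also small for genes that change little. The SD over the libraries was 0.462 for *Spry4*, 0.322 for *Spred2* and 0.373 for *Spry1*, against 0.823 for *Spred1* and 0.561 for *Etv5*. Of all other tested genes, those nearest to *Dusp6* were *Mmp2* (0.243), *Emilin1* (0.243) and *Cpxm1* (0.25), against an SD of 0.687 for *Dusp6* itself. *Mmp2* encodes a matrix metalloproteinase and *Emilin1* an elastic fiber glycoprotein. The genes nearest to *Dusp5* were *Akr1b7*, *Tubb3* and *Gm6493*, at 0.361, 0.535 and 0.574, against an SD of 1.579 for *Dusp5* itself. The nearest genes were *Nup62cl*, *Cryl1* and *Gm13594* for *Dusp1*, *Adcy3*, *Prelp* and *Hivep3* for *Dusp4*, *Prex1*, *Prkcd* and *Slc6a13* for *Spry1*, and *Smox*, *Zfp282* and *Trim17* for *Spry2*, at 0.168 to 0.476. They were *Pag1*, *Tnfrsf14* and *Nlrc5* for *Spry4*, *Lpar1*, *Slc10a2* and *Cpne8* for *Spred1*, *Reln*, *Rapgef2* and *Mtor* for *Spred2*, and *Pvr*, *Tbc1d2b* and *Baz1a* for *Etv5*, at 0.106 to 0.247. The remaining SDs were 1.075 for *Dusp1*, 0.471 for *Dusp4* and 0.406 for *Spry2*.

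Marker sums of other liver cells moved in different directions. Those of stellate cells and fibroblasts, and of cholangiocytes, lay above all baseline libraries in every vehicle remnant, as *Dusp6* did. The summed level of 7 stellate cell and fibroblast markers was 184 to 213 CPM at baseline, 496, 477 and 385 CPM in vehicle replicates 1 to 3 and 461, 239 and 269 CPM in NSC replicates 1 to 3. It was thus lowest in vehicle replicate 3 and highest in NSC replicate 1 within each treatment, as *Dusp6* and *Dusp5* were. The macrophage sum (144, 167 and 87.1 CPM with vehicle, 284, 173 and 177 with NSC) had the same extremes. So did the neutrophil sum (11.7, 20.9 and 9.74, then 21.9, 15.6 and 13.3) and the lymphocyte sum (1.2, 2.05 and 0.59, then 2.25, 1.87 and 1.49). The hepatocyte, cholangiocyte and endothelial sums did not. Single stellate cell and fibroblast markers differed among the vehicle libraries. Replicate 3 was the lowest for *Col3a1* (201, 168 and 112 CPM), *Col1a1*, *Pdgfrb* and *Lrat*. It was the highest for *Dcn* (171, 164 and 175 CPM) and *Rgs5* (33.2, 38.5 and 42.1), and lay between the others for *Des*. The part of any sum in the differences of *Dusp6* and *Dusp5* was not tested. Of the 7 stellate cell and fibroblast markers, 5 rose with vehicle (12.7% of all genes) and 3 with NSC (18.2%). Between treatments 5 were lower with NSC and 2 higher, and 0 passed by the quasi-likelihood test (0.0399% of all genes). An unadjusted p under 0.05 was reached by 4 (19.5% of all genes), all lower with NSC. They were *Pdgfrb* (-1.03), *Col1a1* (-2.30), *Col3a1* (-1.51) and *Des* (-0.55). *Col3a1* had means of 20.6 CPM at baseline, 160 with vehicle and 56.4 with NSC. *Dcn* had 124, 170 and 187 CPM in that order, and *Rgs5* 23.2, 37.9 and 45.7. No marker of any cell type was at 0 throughout a group. Cholangiocyte markers summed to 37.8 to 40.7 CPM at baseline, 76 to 115 with vehicle and 79 to 122 with NSC. Most of this sum was *Spp1*, with means of 33.1, 73.1 and 84.3 CPM in that order. *Krt19* had 0.935, 3.92 and 1.85 CPM, and *Krt7* 0.605, 4.14 and 2.01. Of the 5 cholangiocyte markers tested, 3 were lower with NSC than with vehicle and 2 higher. None passed (0.0399% of all genes), and 2, *Krt19* and *Krt7*, had an unadjusted p under 0.05 (19.5%). Endothelial markers summed to 180 to 188, 116 to 186 and 137 to 244 CPM, and macrophage markers (6 of 7 in the table) to 102 to 152, 87.1 to 167 and 173 to 284 CPM. Neutrophil markers ranged from 3.82 to 21.9 CPM over all libraries, and lymphocyte markers from 0.59 to 7.59. Hepatocyte markers summed to 116000 to 122000 CPM at baseline, 100000 to 142000 with vehicle and 105000 to 118000 with NSC, most of it from albumin. The part of these markers in the results on the feedback genes was likewise not tested.

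The adaptors, RAS proteins and kinases of the cascade itself moved in both directions. Of 24 genes of the RAS-ERK cascade, 2 rose (12.7% of all genes) and 3 fell (11%) with vehicle against baseline. Their median log2 fold change was 0.00. The ERK-activated kinase genes *Rps6ka1* and *Rps6ka3* moved in opposite directions, *Rps6ka1* from 14.9 ± 2.03 to 7.33 ± 1.72 CPM (log2 fold change -1.02, adjusted p = 0.00325) and *Rps6ka3* from 9.07 ± 0.844 to 18.1 ± 1.98 CPM (1.00, adjusted p = 0.00952). The RAS gene *Nras* rose (0.62), and the SHP2-binding adaptor *Gab1* fell (-0.70), as did the RAS exchange factor *Sos1* (-0.45, adjusted p = 0.0492). With NSC against baseline 4 of the 24 rose (18.2% of all genes) and 4 fell (16.5%), with a median of 0.08. They were led by the RAF kinase *Araf* (84.2 ± 4.9 to 50.0 ± 2.0 CPM, log2 fold change -0.75, adjusted p = 0.00155), *Rps6ka3* (1.28), *Nras* (0.82) and *Rps6ka1* (-0.96). Between treatments 0 of 24 passed by the quasi-likelihood test (0.0399% of all genes). An unadjusted p under 0.05 was reached by 7 (19.5% of all genes), and the median was 0.04.

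Of 10 further MAPK phosphatase, Sprouty and SPRED genes, 9 were in the table and 6 could be tested. With vehicle 0 of 6 passed (23.7% of all genes) and 0 had an unadjusted p under 0.05 (37%). With NSC 1 rose (18.2% of all genes), *Dusp7*, another cytoplasmic ERK phosphatase (1.56 ± 0.559 to 3.06 ± 0.325 CPM, log2 fold change 0.97, adjusted p = 0.0315). The medians of these 6 were 0.10 for vehicle against baseline, 0.04 for NSC against baseline and 0.10 for NSC against vehicle. Between treatments 0 of 6 passed (0.0399% of all genes) and 0 had an unadjusted p under 0.05 (19.5%). 

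Among 14 other negative regulators of receptor and ERK signaling, 2 rose (12.7% of all genes) and 1 fell (11%) with vehicle. *Socs3*, the feedback inhibitor of cytokine receptors, rose from 10.6 ± 4.57 to 74.8 ± 11.0 CPM (log2 fold change 2.81, adjusted p = 0.000231), *Pea15a*, which holds ERK in the cytoplasm, rose by 0.47, and the adaptor *Sh2b3* fell by 0.87. With NSC 3 rose (18.2% of all genes) and 3 fell (16.5%). Among them were *Socs3* (to 32.8 ± 5.94 CPM, log2 fold change 1.62, adjusted p = 0.00222), *Pea15a* (0.67), *Sh2b3* (-1.03) and *Cic*, the Capicua repressor that ERK inactivates (39.4 ± 3.65 to 17.3 ± 3.75 CPM, -1.19, adjusted p = 0.00313). The medians were 0.07 with vehicle, -0.12 with NSC and -0.15 between treatments. Directly, 0 of 14 passed (0.0399% of all genes) and 2 had an unadjusted p under 0.05 (19.5%). These were *Cic* (-1.16, adjusted p = 0.0849) and *Socs3* (-1.19, adjusted p = 0.0917).

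Other ERK-responsive transcripts, which encode no direct brake on the pathway, were followed as a separate list. Of 16 on the list 13 could be tested, and with vehicle 7 rose (12.7% of all genes) and 1 fell (11%). Their median log2 fold change was 1.61. *Ier3*, an immediate early gene, rose from 0.598 ± 0.155 to 5.07 ± 0.24 CPM (log2 fold change 3.07, adjusted p = 0.000301), the transcription factor gene *Egr1* from 77.2 ± 17.4 to 313 ± 66.9 CPM (2.02, adjusted p = 0.002), and the cyclin D1 gene *Ccnd1* from 10.7 ± 4.01 to 105 ± 60.6 CPM (3.29, adjusted p = 0.0022). The urokinase receptor gene *Plaur* rose from 0.278 ± 0.14 to 1.65 ± 0.281 CPM. With NSC 2 rose (18.2% of all genes), *Ccnd1* (to 80.4 ± 26.5 CPM, 2.91, adjusted p = 0.00234) and *Ier3* (to 1.35 ± 0.759 CPM, 1.18, adjusted p = 0.0342). Another 2 fell (16.5%), *Myc* (-1.35) and the receptor gene *Epha2* (-0.80), and the median of the list was 0.43. Between treatments the median was -0.57, and 0 of 13 passed by the quasi-likelihood test (0.0399% of all genes). An unadjusted p under 0.05 was reached by 7 (19.5% of all genes), all lower with NSC. The smallest adjusted p among these was 0.0849, shared by *Ier3* (-1.89), *Ier2* (-1.82) and *Egr1* (-1.74). The summed level of the whole list was 244 to 283 CPM at baseline, 817, 852 and 659 CPM in vehicle replicates 1 to 3 and 359, 443 and 324 CPM in NSC replicates 1 to 3, so that vehicle replicate 3 was the lowest of its group here too but was above all NSC libraries.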

How the data were processed

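The authors aligned the reads with STAR 2.6.1 in the MAP-RSeq pipeline and assigned them to genes with Subread 1.5.1 (versions from the submitters' processing notes). They deposited raw counts per gene and FPKM, the counts per gene length and library total. The notes name the human build hg38, whereas the deposited genes carry mouse identifiers: 42462 of 43346 are in GENCODE M21 (GRCm38), and 6 of 10 feedback genes have the same coordinates there. Coordinates are given as deposited.

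The counts were fitted in edgeR 4.0.16 with limma 3.58.1 under R 4.3.3 (TMM factors, filterByExpr, robust quasi-likelihood fit of all 9 libraries with the group as the only term). The fit was also run on simulated data for NSC against vehicle only, and the outcome is not given here. DESeq2 1.42.0 and edgeR's exact test were alternatives, with RLE factors, library size only, other filters, GC correction, a replicate block, only 2 groups, and each library left out. Tables and plots used Python 3.11.15, pandas 2.3.3 and matplotlib 3.10.9. Log2 CPM used a prior count of 2. No library duplicated another (chi-square per gene 24.9 to 151 within groups). Intervals and floors cover counting error and the spread between samples only.

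The feedback genes and all lists were chosen with earlier results of these data known. Named genes were every feedback gene, up to 4 passing genes per list and comparison with the smallest adjusted p, and the 3 nearest genes in pattern. Genes named beyond these were chosen after values were seen. They were *Sos1*, *Cdkn1a* for NSC against baseline, and *Cic*, *Socs3*, *Ier2*, *Ier3*, *Egr1*, *Pck1*, *Per1*, *Tat* and *Tsc22d3* in the direct comparison. The cell type markers named singly and the CArG and CCGGAA searches were also chosen after values were seen.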

Additional observations from a re-analysis of the deposited data

How the results depend on the processing

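Precision is limited by 3 libraries per group. Against baseline, the same 4 feedback genes passed with vehicle at an adjusted p under 0.05 in each alternative fit that tested them; *Dusp5* could not be tested with at least 10 counts in every library. With the fold threshold of 1.5 added, 1 passed with vehicle and 2 with NSC, and at an adjusted p under 0.1, 1 passed between treatments. There the exact test called 1 and DESeq2 called 2. With each library left out in turn, 4 to 4 passed with vehicle, 2 to 5 with NSC and 0 to 2 between treatments, and the median for NSC against baseline ranged from -0.22 (without NSC replicate 1) to 0.14.

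Some small differences changed sign. Against baseline with NSC, *Dusp4* was -0.01 with the replicate block and *Spry2* -0.10 after GC correction. Between treatments *Spry1* was 0.02 when only library size was scaled, and GC correction gave 0.24 for *Spry1* and -0.05 for *Spred1*. With libraries left out, *Spry1* ranged from -0.40 to 0.03 and *Spred2* from -0.26 to 0.22 with vehicle, *Dusp4* from -0.47 to 0.22, *Dusp6* from -0.06 to 0.25 and *Spry2* from -0.05 to 0.44 with NSC, and *Spry1* from -0.37 to 0.06, *Spred2* from -0.47 to 0.01 and *Dusp1* from -0.23 to 0.69 between treatments. The cause was not tested.

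The number of all genes passing was 2285 to 4856 with vehicle (3564 as reported) and 0 to 994 between treatments (6 as reported, 758 with DESeq2, 247 with the exact test, 221 with all genes of at least 1 count, 0 after GC correction, 111 without vehicle replicate 3 and 994 without NSC replicate 1). Library size alone moved the median of all genes to 0.154 with NSC and 0.142 between treatments, and the share of higher calls with NSC from 52.4% to 65.4%. GC correction moved that share to 41.0%, and with vehicle from 53.7% to 39.3%. Deviations from the group means correlated at -0.048 to 0.134 between same-numbered libraries and at -0.115 to 0.066 between differently numbered ones. With 3 libraries per group, whether same-numbered samples share a mouse cannot be told from this. With the replicate block the same 4, 4 and 0 feedback genes passed, among 3578, 5178 and 11 genes in all.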

Other observations

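Glucocorticoid-responsive genes, a class to which *Dusp1* also belongs, were followed as a list of 10, all of which were tested. With vehicle against baseline 3 fell (11% of all genes) and 1 rose (12.7%). *Tat*, the tyrosine aminotransferase of hepatocytes, fell from 3710 ± 586 to 1560 ± 405 CPM (log2 fold change -1.25, adjusted p = 0.0036, edgeR quasi-likelihood test), *Tsc22d3* from 64.5 ± 15.9 to 34.2 ± 4.52 CPM (-0.91, adjusted p = 0.0256) and the gluconeogenic gene *Pck1* from 4730 ± 573 to 2640 ± 830 CPM (-0.84, adjusted p = 0.0307). The cell cycle inhibitor *Cdkn1a* rose from 20.9 ± 14.6 to 83.6 ± 21.2 CPM (2.00, adjusted p = 0.0295). With NSC against baseline 3 fell (16.5% of all genes) and 0 rose (18.2%). The clock gene *Per1* fell from 41.9 ± 14.4 to 8.86 ± 1.51 CPM (-2.24, adjusted p = 0.00197), *Tat* to 970 ± 237 CPM (-1.93, adjusted p = 0.000225) and *Pck1* to 1200 ± 239 CPM (-1.97, adjusted p = 0.000271). *Cdkn1a* was at 1.53 with an adjusted p of 0.054. The list medians were -0.38, -0.70 and, between treatments, -0.67. There 0 of 10 passed (0.0399% of all genes) and 4 had an unadjusted p under 0.05 (19.5%). Of these, *Pck1* (-1.13), *Per1* (-1.23) and *Tat* (-0.69) were lower with NSC and *Tsc22d3* (0.73) was higher.

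The 6 proliferation markers all rose in both kinds of remnant, where 12.7% of all genes rose with vehicle and 18.2% with NSC. Their summed level was 26.5 to 26.8 CPM at baseline, 338, 351 and 291 CPM in vehicle replicates 1 to 3 and 208, 769 and 629 CPM in NSC replicates 1 to 3. NSC replicate 1, the highest of its group for 9 of the 10 feedback genes, was the lowest library at 40 h by this sum. Between treatments 0 of 6 passed (0.0399% of all genes) and 1 had an unadjusted p under 0.05 (19.5%).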
